A study of Homo sapiens with 12 samples.

Results

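The EGF receptor family and its ligands were followed as 8 genes out of the 29035 in the count table, taken by gene symbol. They were 4 ligands of EGFR (AREG, EREG, HBEGF and TGFA), 3 receptors (EGFR, ERBB2 and ERBB3) and ERRFI1, a cytoplasmic inhibitor of these receptors. All 8 had a row in the table, and 7 passed the filter on low counts. ERBB3 did not pass it and was therefore not tested.

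EGFR is a receptor tyrosine kinase that pairs with itself or with ERBB2 or ERBB3 when a ligand binds, and passes the signal on through RAS and ERK. Its ligands are made as membrane-anchored precursors that metalloproteinases of the ADAM family cut loose. Amphiregulin (AREG) and epiregulin (EREG) are ligands often made by lung epithelium, while heparin-binding EGF (HBEGF) and transforming growth factor alpha (TGFA) bind the receptor more tightly. ERBB2 binds no known ligand, and ERBB3, which binds neuregulins, has little kinase activity of its own. ERRFI1 (also called MIG6) is itself induced by EGFR signaling and blocks the kinase, which closes a negative feedback loop.

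The cells were A549, a human lung adenocarcinoma line that undergoes epithelial-to-mesenchymal transition (EMT) when given TGFβ. They were grown in serum-containing medium and given 4 ng/mL TGFβ for 0 h, 0.5 h, 12 h, 24 h, 48 h or 96 h, with the 0 h cells as the untreated start, the medium being renewed every other day. No later time had an untreated library, so TGFβ and time in culture cannot be told apart. For each time there were 2 libraries of 384 wells made by CEL-Seq2, a 3′-end method for single cells, with 1 propidium iodide-negative cell sorted per well. All groups were the same line, and nothing in the labels tells separate cultures from repeat libraries, so p-values reflect no more than the spread among these libraries, and that spread may be technical. Of 4608 wells, 1871 were kept as cells (54 to 217 per library, the fewest at 96 h, where 14.1% and 16.7% of wells were kept). Libraries held 1264044 to 4500036 protein-coding UMIs (unique molecular identifiers, each standing for 1 captured mRNA molecule), and the median kept cell 14137 to 28045 UMIs of all genes. Replicate 1 carried another barcode set than replicate 2 at every time, with 0 of 384 barcodes in common, so replicate number and barcode set cannot be told apart. The epithelial keratins KRT8 and KRT18 were found at 608 and 460 CPM or more on average at every time, and the A549-typical dehydrogenase ALDH1A1 at 3542 CPM or more. Other markers were low or fell. Among epithelial genes, EPCAM had 5.77 CPM or less, KRT19 went from 52.0 (0 h) to 4.61 CPM (96 h) and CDH1 from 35.9 to 0.666. Of genes high in A549, AKR1B10 went from 6942 to 532 CPM and AKR1C1 from 720 to 84.1. Most defining genes of other cells were at or near 0, with 0 UMIs in all for PTPRC (immune), 1 for PECAM1 (endothelial) and 1 for DCN (fibroblast). Exceptions were the immune gene CD14, with 124 UMIs in all and 7.12 and 9.27 CPM at 0 h, and the fibroblast genes LUM and PDGFRA, with 26 and 19 UMIs in all.

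Levels are given as CPM (counts scaled to a common library total) of the summed kept cells of a library after TMM scaling, given for replicate 1 and then replicate 2. Changes are log2 ratios ± SE from edgeR's quasi-likelihood test over all 12 libraries, and the threshold for passing was a p of 0.05 after Benjamini-Hochberg adjustment across the 10465 tested genes.

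AREG and EREG are neighbors. In GENCODE 44 on GRCh38, EREG lies on chromosome 4 from 74365145 to 74388749 and AREG from 74445136 to 74455005, both on the plus strand and 56386 bases apart. HBEGF lies on chromosome 5 from 140332843 to 140346603 on the minus strand. Because reverse transcription starts from the poly(A) tail, the counts are taken to come mainly from the 3′ end of each gene. Read positions were not examined. The 250 bases before the RefSeq start of these 3 ligand genes (GRCh38.p14, own strand) are shown because their transcripts moved most among the members. Capitals mark the cAMP response element TGACGTCA and the E-box CAGGTG, or CACCTG where it lies on the other strand, a sequence bound by the EMT repressors of the SNAI and ZEB families.
AREG: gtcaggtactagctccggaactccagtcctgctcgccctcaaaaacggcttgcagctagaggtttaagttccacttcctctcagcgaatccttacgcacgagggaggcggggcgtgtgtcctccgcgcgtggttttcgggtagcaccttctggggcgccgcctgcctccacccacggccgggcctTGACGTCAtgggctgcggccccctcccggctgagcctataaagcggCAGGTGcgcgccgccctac
EREG: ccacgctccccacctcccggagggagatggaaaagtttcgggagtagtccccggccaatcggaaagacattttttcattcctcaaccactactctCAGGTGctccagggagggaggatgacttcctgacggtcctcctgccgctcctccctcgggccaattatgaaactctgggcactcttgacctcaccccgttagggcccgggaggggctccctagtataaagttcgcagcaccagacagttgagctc
HBEGF: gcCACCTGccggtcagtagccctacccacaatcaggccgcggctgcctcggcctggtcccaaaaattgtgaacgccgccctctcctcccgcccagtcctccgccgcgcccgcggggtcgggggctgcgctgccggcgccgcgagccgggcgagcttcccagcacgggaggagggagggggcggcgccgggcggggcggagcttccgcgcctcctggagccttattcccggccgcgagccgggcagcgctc
The AREG window held a full cAMP response element 65 to 58 bases before the start and an E-box 19 to 14 bases before it. Of 35116 RefSeq promoter windows of this length, 1.65% held TGACGTCA and 17.5% held CAGGTG on either strand. EREG held the E-box 155 to 150 bases and HBEGF 248 to 243 bases before the start, and a window of TGFA, which passed against 0 h at 48 h only, held it 42 to 37 bases before its start. Windows of 7 of the 8 members were found (ERBB3 was not matched), and the palindrome GTCTAGAC of SMAD proteins, present in 0.182% of all windows, was in none of theirs. The AP-1 motif TGANTCA, present in 6.57% of windows, occurred in one of the 2 EGFR windows and in that of ERBB2. These matches describe letters and not binding.

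Over time, the members split into ligands and the inhibitor that were lower after TGFβ, and a ligand and a receptor that were higher. AREG, EREG and ERRFI1 were lower and HBEGF and EGFR higher than at 0 h in every comparison from 12 h on, whereas ERBB2 passed in none. At 0.5 h, 0 of 7 members passed in edgeR (1 at an unadjusted p under 0.05, 0 in DESeq2), beside 0.440% of all genes tested (0.392% higher and 0.0478% lower). At 12 h, 5 of 7 passed, 2 higher and 3 lower, beside 14.3% of all genes (8.46% higher and 5.83% lower). The same count of 5, again 2 higher and 3 lower, was found at 24 h, beside 13.2% of all genes (7.62% higher and 5.56% lower), and at 96 h, beside 23.7% (12.5% higher and 11.1% lower). At 48 h, 6 of 7 passed, 2 higher and 4 lower, TGFA being the additional one, beside 18.5% of all genes (10.0% higher and 8.48% lower). These comparisons share the 0 h libraries. The members were chosen with earlier results of these data known, so the counts beside the shares of all genes are a description and not a test.

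**Figure D1:**
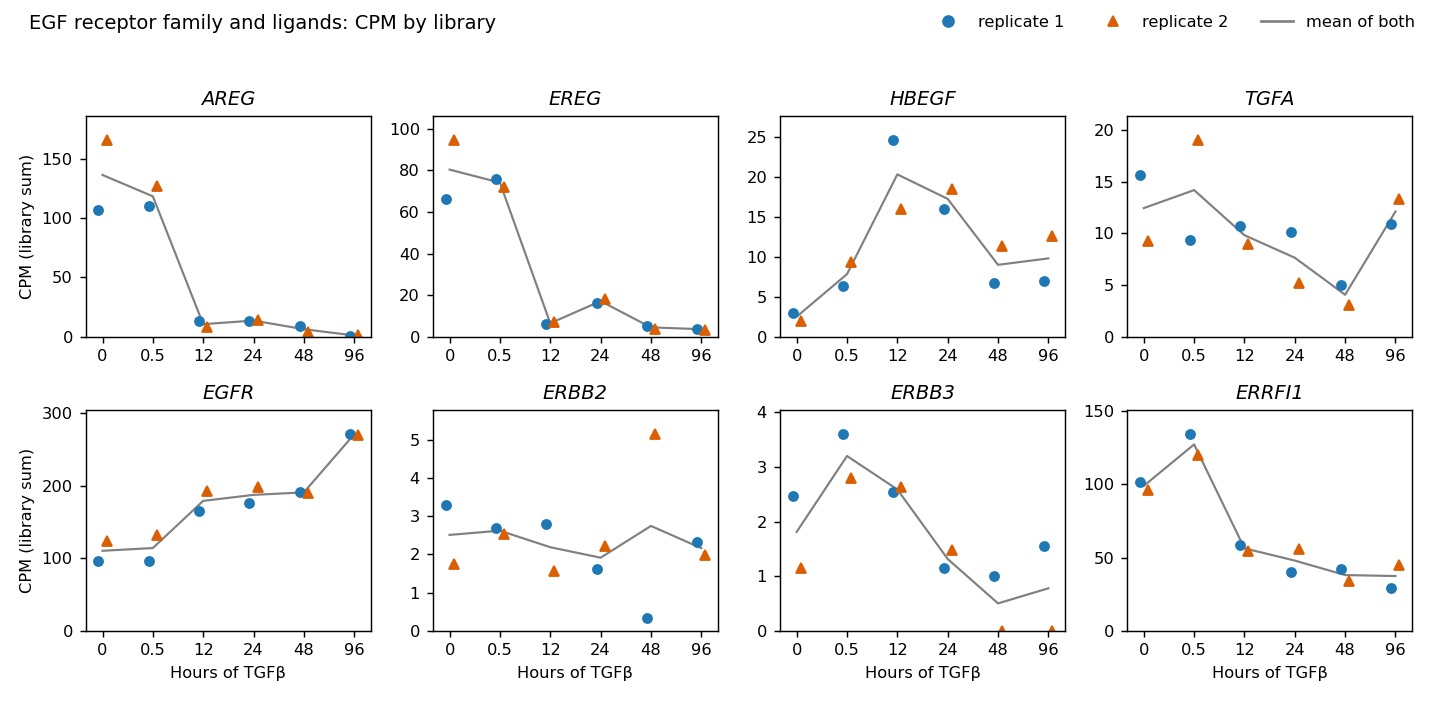
CPM of each of the 8 members against hours of TGFβ (evenly spaced, axes from 0 and scaled per gene), with circles for replicate 1, triangles for replicate 2 and a line through the mean. AREG and EREG are lower from 12 h on than before, HBEGF has its highest library at 12 h, EGFR is highest at 96 h, and ERBB2 and ERBB3 stay under 6 CPM in every library.

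AREG was the most abundant of the 4 EGFR ligands at the start and nearly absent at the end. It had 107 and 166 CPM (0 h), 110 and 127 (0.5 h), 13.0 and 8.14 (12 h), 13.5 and 13.7 (24 h), 9.03 and 3.61 (48 h), and 0.778 and 1.33 (96 h). The libraries from 12 h on all lay below those of 0 h and 0.5 h, with no overlap. The change against 0 h was -3.68 ± 0.26 at 12 h (adjusted p = 1.05e-09), -3.32 ± 0.26 at 24 h and -4.32 ± 0.30 at 48 h (adjusted p = 3.86e-10). At 96 h, 3 UMIs were left in both libraries together, against 964 at 0 h. The ratio of 96 h to 0 h was 0.00793, with an exact 95% interval of 0.00163 to 0.0233. This and the other intervals in the text cover counting error only.

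In replicate 1 at 48 h, the AREG level rested mainly on a single cell. This cell held 19 of the 27 AREG UMIs (70.4%), and it also held 7 of the 16 EREG UMIs of that library. It had 39506 UMIs in all, 6121 detected genes and a mitochondrial share of 19.7%, within the limits for a cell and near the upper limit of 40000 UMIs. Without it, AREG in that library was at 2.68 CPM, close to the 3.61 CPM of replicate 2. Between 48 h and 24 h, the log2 difference of AREG was -1.0 ± 0.37 (adjusted p = 0.132). It passed in that comparison without the filter on low counts (-1.03, adjusted p = 0.0231). Without 48 h replicate 1 the log2 difference was -1.91. It was -2.24 (adjusted p = 0.00154) without the AREG UMIs of the top cell of every library, an alternative added after seeing the data. Each such cell was picked by its AREG count, and that of 48 h replicate 1 held 19 of 27 UMIs. This lowers 48 h by construction, so that p is no independent support. Under stricter limits on cells the sign of the difference turned (0.24, adjusted p = 0.980).

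EREG fell at 12 h as AREG did, and its 24 h libraries stood out from their neighbors in time. Its levels were 66.0 and 94.7 CPM (0 h), 76.0 and 72.1 (0.5 h), 6.11 and 6.83 (12 h), 16.1 and 18.2 (24 h), 5.35 and 3.61 (48 h), and 3.89 and 3.33 (96 h). Both 24 h libraries lay above both 12 h libraries and above both 48 h libraries. The change against 0 h was -3.63 ± 0.24 at 12 h (adjusted p = 5.74e-11), -2.24 ± 0.21 at 24 h (2.96e-08), -4.10 ± 0.27 at 48 h (4.28e-11) and -4.47 ± 0.33 at 96 h (2.52e-10). The difference of 24 h from 12 h was 1.39 ± 0.27, with an unadjusted p of 3.17e-05 and an adjusted p of 0.115, or 0.00133 without the filter on low counts. Within replicate 1 and within replicate 2, each with its own barcode set, the log2 ratio of CPM + 1 was 1.26 and 1.29. No gene passed in that comparison (0 of 10465 in edgeR, 572 at an unadjusted p under 0.05, 2 in DESeq2), and 0 of 7 members did (1 at an unadjusted p under 0.05, 0 in DESeq2). EREG fell at 48 h against 24 h (log2 change -1.86 ± 0.32, adjusted p = 0.000583) and was the only 1 of 7 members to pass there, beside 5.24% of all genes (2.61% higher and 2.63% lower). AREG exceeded EREG in UMIs at 0 h, with ratios of 1.62 and 1.76, whereas at 24 h the ratios of AREG to EREG were 0.843 and 0.755.

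HBEGF went the other way. This ligand, which is also the receptor for diphtheria toxin, had 3.01 and 2.03 CPM (0 h), 6.31 and 9.40 (0.5 h), 24.7 and 16.0 (12 h), 16.1 and 18.5 (24 h), 6.69 and 11.3 (48 h), and 7.0 and 12.6 (96 h). Every later library lay above both 0 h libraries, which held 11 and 7 UMIs. The change against 0 h was 2.99 ± 0.38 at 12 h (adjusted p = 2.80e-06), 2.74 ± 0.39 at 24 h (1.37e-05), 1.76 ± 0.45 at 48 h (0.00641) and 1.96 ± 0.49 at 96 h (0.00423). The difference of 0.5 h from 0 h was 1.63 ± 0.43, with an unadjusted p of 0.000883 and an adjusted p of 0.147, and of the alternatives run it passed only without the filter on low counts (adjusted p = 0.0204). HBEGF also rose at 12 h against 0.5 h, by 1.36 ± 0.31 (adjusted p = 0.00370), one of 5 of 7 members to pass in this comparison beside 12.0% of all genes (7.11% higher and 4.92% lower). Single libraries carried some of these calls. That at 12 h against 0.5 h did not pass without 12 h replicate 1 (adjusted p = 0.127), in which 1 cell held 18 of the 97 UMIs, or without 0.5 h replicate 1 (0.0818). At 48 h against 0 h it did not pass without 0 h replicate 2 (0.0774) or 48 h replicate 2 (0.0923), and at 96 h not without 96 h replicate 2 (0.178). With all libraries thinned to the smallest, the calls at 12 h against 0.5 h (0.0732) and at 48 h against 0 h (0.0530) were not made either. No HBEGF call was lost without the HBEGF UMIs of the top cell of each library, an alternative added after seeing the data.

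TGFA passed against 0 h at 48 h only. It had 15.6 and 9.27 CPM (0 h), 9.31 and 19.0 (0.5 h), 10.7 and 8.93 (12 h), 10.1 and 5.19 (24 h), 5.02 and 3.09 (48 h), and 10.9 and 13.3 (96 h). Only the 48 h libraries stood below those of 0 h, and the libraries of the other times overlapped with them. The change at 48 h against 0 h was -1.55 ± 0.44 (adjusted p = 0.0145), which did not pass without 0 h replicate 1 (-1.13, 0.196), without 48 h replicate 2 (0.101) or with all libraries thinned to the smallest (0.0770). The difference of 96 h from 48 h was 1.52 ± 0.50 (adjusted p = 0.179). In that comparison 0 of 7 members passed in edgeR, 3 had an unadjusted p under 0.05 and 0 passed in DESeq2, beside 1.21% of all genes (0.803% higher and 0.411% lower).

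**Figure D2:**
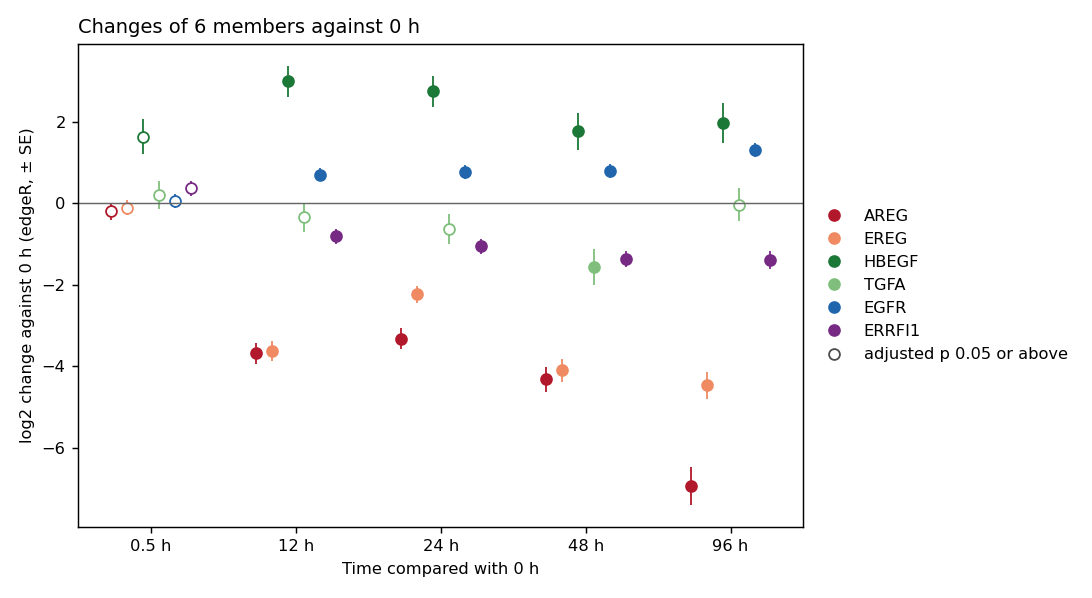
log2 change of 6 members against 0 h (edgeR fit, bars ± SE, n = 2 libraries per time) at 0.5 h to 96 h, with filled points for an adjusted p under 0.05. AREG and EREG lie between -4.47 and -2.24 from 12 h to 96 h except for AREG at 96 h, a fitted value that rests on 3 UMIs, while HBEGF and EGFR are above 0.

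The ligands were lower in sum after TGFβ, and differed in composition; neither was tested. CEL-Seq2 counts 1 tag per captured molecule whatever the length of the mRNA, so UMIs of different genes were added without length scaling, although capture may differ between genes. The 4 ligands together had 232 ± 57.1 CPM (0 h, mean ± SD, n = 2), 215 ± 18.4 (0.5 h), 47.2 ± 10.3 (12 h), 55.7 ± 0.108 (24 h), 23.9 ± 3.12 (48 h) and 26.6 ± 5.70 (96 h). Every library from 12 h on was far below those of both earlier times. HBEGF made up 45.3% and 40.1% of the ligand UMIs at 12 h (Clopper-Pearson 95% intervals 38.5% to 52.3% and 32.3% to 48.4%), against 1.57% and 0.745% at 0 h (0.788% to 2.80% and 0.30% to 1.53%). AREG made up 3.45% and 4.35% at 96 h, against 55.8% and 61.1% at 0 h. TGFA, whose own level at 96 h overlapped with that at 0 h, made up 48.3% and 43.5% at 96 h, against 8.15% and 3.40% at 0 h. The 96 h shares rest on 29 and 46 ligand UMIs.

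**Figure D3:**
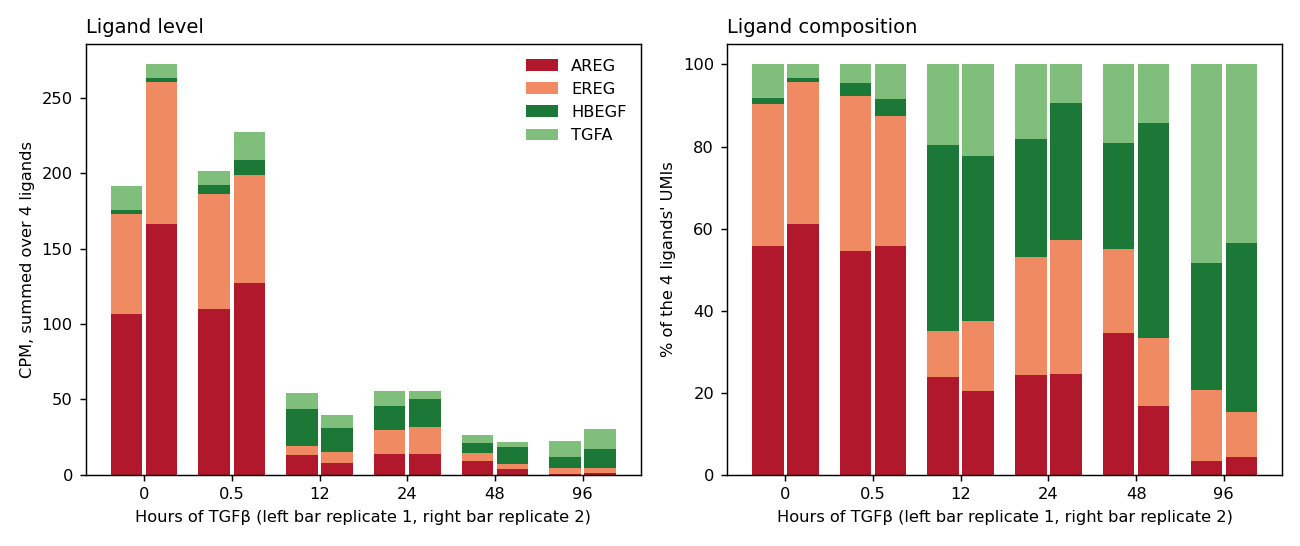
Stacked CPM of AREG, EREG, HBEGF and TGFA (left, axis from 0) and their percentage of the 4 ligands' UMIs (right) against hours of TGFβ, with the left bar of each pair for replicate 1 and the right bar for replicate 2. The sum is lower from 12 h on than before, and HBEGF and TGFA take a larger percentage of it.

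EGFR, the receptor that all 4 ligands bind, rose while their sum was lower. It lies on chromosome 7 from 55019017 to 55211628 on the plus strand. Its levels were 96.7 and 124 CPM (0 h), 95.8 and 132 (0.5 h), 165 and 193 (12 h), 177 and 198 (24 h), 191 and 190 (48 h), and 271 and 270 (96 h). All libraries from 12 h on lay above those of 0 h and 0.5 h, and those of 12 h, 24 h and 48 h overlapped with each other. EGFR was higher in replicate 2 than in replicate 1 at each of the times up to 24 h. The change against 0 h was 0.70 ± 0.17 at 12 h (adjusted p = 0.00455), 0.76 ± 0.17 at 24 h (0.00217), 0.79 ± 0.17 at 48 h (0.00131) and 1.30 ± 0.17 at 96 h (2.78e-06). Without 0 h replicate 1, the lower of its pair, EGFR did not pass at 12 h (adjusted p = 0.114), 24 h (0.0815) or 48 h (0.0520), and at 12 h it did not pass without 12 h replicate 2 either (0.0551). The call at 96 h passed without any one library. EGFR was also higher at 12 h than at 0.5 h (0.65 ± 0.17, adjusted p = 0.00946), which did not pass without 0.5 h replicate 1 (0.208) or 12 h replicate 2 (0.0990). The difference of 96 h from 48 h was 0.51 ± 0.17 (adjusted p = 0.179).

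The partner receptors had few UMIs. ERBB2 had 1 to 12 UMIs per library, or 0.334 to 5.16 CPM, and its means were 2.51 CPM (0 h), 2.62 (0.5 h), 2.19 (12 h), 1.91 (24 h), 2.75 (48 h) and 2.17 (96 h). Its lowest and highest CPM were both at 48 h, with 1 UMI in replicate 1 and 10 UMIs in replicate 2. The last exon of ERBB2 overlaps MIEN1 on the opposite strand, and since the strand setting of the counting is not given in the sources used here, these few counts are uncertain. That of ERBB3 overlaps another protein-coding gene on the same strand. How reads in such an overlap were counted is not given either, so ERBB3 may be undercounted. ERBB3 had 9 and 4 UMIs (0 h), 12 and 11 (0.5 h), 10 and 10 (12 h), 5 and 4 (24 h), 3 and 0 (48 h), and 2 and 0 (96 h). The 48 h and 96 h counts were the lowest, but the ratio of 48 h to 0 h was 0.333 with an exact 95% interval of 0.0608 to 1.21, and that of 96 h to 0 h was 0.392 with 0.0430 to 1.73. A change of ERBB3 against 0 h was thus not detectable at this depth. Its 48 h and 96 h libraries (0 to 1.56 CPM) lay below those of 0.5 h and 12 h (2.55 to 3.60 CPM), a difference that was not tested.

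ERRFI1 fell with AREG and EREG. It had 102 and 96.4 CPM (0 h), 135 and 120 (0.5 h), 58.3 and 54.4 (12 h), 40.4 and 55.6 (24 h), 42.1 and 34.0 (48 h), and 29.6 and 45.3 (96 h). The 0.5 h libraries were the highest, and every library from 12 h on was below every earlier one. At 0.5 h the difference from 0 h was 0.36 ± 0.18 (unadjusted p = 0.0537, adjusted p = 1). The change against 0 h was -0.81 ± 0.18 at 12 h (adjusted p = 0.00315), -1.06 ± 0.19 at 24 h (0.000246), -1.36 ± 0.20 at 48 h (1.35e-05) and -1.39 ± 0.21 at 96 h (2.44e-05). The first of these did not pass without 12 h replicate 2 (-0.73, adjusted p = 0.0538). Against 0.5 h, ERRFI1 fell at 12 h (log2 change -1.17 ± 0.18, adjusted p = 6.16e-05). EGFR and its inhibitor thus changed in opposite directions from 12 h on.

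Under stricter limits on cells, which left 6 to 58 cells per library, the calls of AREG at 12 h, 24 h, 48 h and 96 h were lost (adjusted p = 0.183, 0.407, 0.261 and 0.0580), as were those of EGFR at 12 h (0.0813) and 24 h (0.0762), ERRFI1 at 12 h (0.0679) and EREG at 24 h (0.521), all against 0 h. Those of AREG (0.357) and EGFR (0.263) at 12 h against 0.5 h and of EREG at 48 h against 24 h (0.472) were lost too, and HBEGF and TGFA were too low there to test. Each of these changes kept its sign, and the sizes for AREG were -4.76 ± 1.58 (12 h), -3.27 ± 1.49 (24 h), -3.03 ± 1.28 (48 h) and -6.61 ± 1.74 (96 h). EGFR was at 0.89 ± 0.32 at 12 h and 0.98 ± 0.33 at 24 h, and ERRFI1 at -1.15 ± 0.39 at 12 h, while EREG at 24 h was at -1.17 ± 0.70, against -2.24 with all kept cells.

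Of 8 further genes of the family, 7 were in the table and only NRG1 was abundant enough to test. NRG1 encodes a neuregulin, a ligand of ERBB3 and ERBB4. It had 125 and 127 CPM (0 h), 129 and 145 (0.5 h), 271 and 241 (12 h), 268 and 275 (24 h), 293 and 301 (48 h), and 278 and 292 (96 h). From 12 h on every library was above those of 0 h and 0.5 h, and the change against 0 h lay between 1.02 ± 0.14 at 12 h (adjusted p = 9.89e-06) and 1.23 ± 0.14 at 48 h (4.82e-07). ERBB4, the other receptor for neuregulins, had 3 UMIs in all 12 libraries together. EGF, BTC, EPGN, NRG2 and NRG4 had 0 to 14 UMIs per library and were not tested.

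The genes that act around the receptor were then counted by list. These lists too were chosen with earlier results of these data known, so their counts are descriptions. Of 7 tested genes of ligand shedding, 3 rose and 0 fell at 12 h, and 1 rose and 0 fell at 96 h (median log2 change 0.39 at 12 h, against -0.02 over all genes). Of all genes tested, 8.46% rose and 5.83% fell at 12 h, and 12.5% rose and 11.1% fell at 96 h, so that 1 of 7 at 96 h was near the share of all genes. ADAM19, a membrane metalloproteinase, was at 157 and 155 CPM at 12 h, against 5.20 and 3.76 CPM at 0 h. Its change was 5.10 ± 0.24 at 12 h (adjusted p = 3.81e-13) and 5.53 ± 0.24 at 96 h (2.46e-14). RHBDF1 and RHBDF2, the iRhom partners of ADAM17, rose by 1.04 ± 0.24 and 0.76 ± 0.23 at 12 h (adjusted p = 0.00387 and 0.0247) and had changes of 0.20 ± 0.30 and 0.33 ± 0.27 at 96 h that did not pass. ADAM9, ADAM10, ADAM12 and ADAM17 passed at neither time. The changes of ADAM10 were -0.16 ± 0.15 (12 h) and 0.33 ± 0.16 (96 h), and those of ADAM17 -0.03 ± 0.32 and -0.60 ± 0.41.

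Of 8 tested genes of receptor sorting and degradation, 3 rose and 0 fell at 12 h (8.46% and 5.83% of all genes), and 1 rose and 0 fell at 96 h (12.5% and 11.1% of all genes), with medians of 0.34 and 0.14. The count at 96 h equalled the share of all genes that rose. SH3KBP1 (CIN85), an adaptor of the ubiquitin ligase CBL in receptor endocytosis, had 598 and 525 CPM at 12 h, against 174 and 225 at 0 h, a change of 1.49 ± 0.16 (adjusted p = 2.42e-07), and 1.49 ± 0.16 again at 96 h. CBL itself rose by 0.88 ± 0.27 at 12 h (adjusted p = 0.0266) and the endocytic adaptor EPN1 by 0.57 ± 0.17 (0.0240). Of 15 tested adaptors and kinases of the RAS and ERK cascade, 1 rose at 12 h (the RAS exchange factor SOS2, 0.94 ± 0.24, adjusted p = 0.00823) and 1 at 96 h (the ERK kinase MAP2K1, 0.55 ± 0.18, 0.0238), with medians of 0.07 and -0.01. These counts were not above the shares of all genes that rose, 8.46% at 12 h and 12.5% at 96 h.

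Genes commonly induced by ERK signaling went both ways. Of 18 tested, 3 rose and 6 fell at 12 h (8.46% and 5.83% of all genes), and 3 rose and 4 fell at 96 h (12.5% and 11.1% of all genes), with medians of -0.11 at both times. The dual-specificity phosphatases DUSP5 and DUSP4, which act on ERK, were at 21.1 and 16.3 CPM and at 99.3 and 87.2 CPM at 12 h, against 60.2 and 70.6 CPM and 206 and 168 CPM at 0 h. Their changes were -1.80 ± 0.24 and -1.0 ± 0.15 at 12 h (adjusted p = 8.85e-06 and 3.55e-05) and -1.33 ± 0.27 and -0.73 ± 0.16 at 96 h. SPRY1, a feedback inhibitor of receptor tyrosine kinases, had 1 UMI at 12 h and 0 UMIs at 96 h, against 32 UMIs at 0 h over both libraries. Its ratio of 12 h to 0 h was 0.0287 (exact 95% interval 0.000705 to 0.172), and at 96 h it was at least 4.18-fold lower, taking a floor of 3 counts over the group. In contrast, the cyclin CCND1 rose by 1.18 ± 0.19 at 12 h (adjusted p = 9.83e-05). The immediate early gene EGR1 was lower at 0.5 h than at 0 h (-1.36 ± 0.28, adjusted p = 0.0462). It was higher at 12 h (1.35 ± 0.25, 0.00140), 48 h (1.44 ± 0.25, 0.000676) and 96 h (1.58 ± 0.26, 0.000283), and did not pass at 24 h (0.64 ± 0.25, 0.120). The ephrin receptor gene EPHA4 had 18 UMIs at 96 h, against 3 at 0 h (ratio 15.3, exact 95% interval 4.47 to 81.1).

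Single cells were then compared at equal depth, each cell being thinned to 12500 UMIs, which left 1684 cells. AREG was found in 59.4% ± 10.5 of cells (0 h, mean ± SD, n = 2 libraries), 56.7% ± 0.687 (0.5 h), 9.26% ± 2.79 (12 h), 10.7% ± 1.26 (24 h), 4.83% ± 0.247 (48 h) and 1.59% ± 2.24 (96 h). In replicate 1 at 96 h it was found in 0 of 51 cells, which allows a share of up to 5.88% for cells with a UMI at this depth, not for cells expressing the gene. With cells at their own depth, 1 of 54 held an AREG UMI there. AREG was thus found in fewer cells from 12 h on, and cells with 4 or more AREG UMIs numbered 0 of 370 at 12 h, against 38 of 332 at 0 h. EREG was found in 52.8% ± 9.16 of cells (0 h), 54.2% ± 0.381 (0.5 h), 6.24% ± 0.716 (12 h), 13.8% ± 0.640 (24 h), 4.05% ± 1.34 (48 h) and 1.77% ± 0.264 (96 h). Wells with fewer than 1000 detected genes were set beside these cells. Whether such wells hold free RNA or shallow cells was not tested. Over all times, 2.97% of these 2187 wells held an AREG UMI and 4.71% an EREG UMI, at a median of 975 UMIs. These shares followed the level of the gene, reaching 13.2% for AREG and 16.8% for EREG in the highest library and 0 of 290 and 0 of 311 such wells for AREG at 96 h. For EREG, 0 of 197 and 1 of 223 such wells held a UMI at 48 h, and 1 of 290 and 0 of 311 at 96 h. The low wells are much shallower than the thinned cells, so whether the few late cells with an AREG or EREG UMI stand above free RNA was not tested.

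HBEGF was detected in a minority of cells at every time. With a mean of 0.326 and 0.208 UMIs per thinned cell at 12 h, cells without a UMI may still express HBEGF. It was found in 2.38% ± 0.669 of thinned cells (0 h), 8.07% ± 0.368 (0.5 h), 16.3% ± 4.70 (12 h), 16.0% ± 0.229 (24 h), 7.60% ± 1.98 (48 h) and 12.0% ± 3.17 (96 h), beside 0.869% of the low wells of all times. With every cell at its own depth, the highest cell held 18 HBEGF UMIs, and this cell of 12 h replicate 1 also held the most EGFR UMIs of its library (13). EGFR was found in most cells at every time, with 65.8% ± 11.4 of thinned cells (0 h), 68.0% ± 12.2 (0.5 h), 82.2% ± 8.21 (12 h), 82.7% ± 8.49 (24 h), 81.7% ± 0.428 (48 h) and 90.1% ± 8.45 (96 h). Cells with 4 or more EGFR UMIs made up 31.6% at 96 h, against 5.72% at 0 h. ERRFI1 was found in 59.9% ± 0.0901 (0 h), 71.0% ± 0.958 (0.5 h), 40.3% ± 1.01 (12 h), 35.9% ± 8.05 (24 h), 24.5% ± 0.685 (48 h) and 28.4% ± 4.23 (96 h). EGFR and ERRFI1 were found in 16.8% and 6.90% of the low wells of all times.

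**Figure D4:**
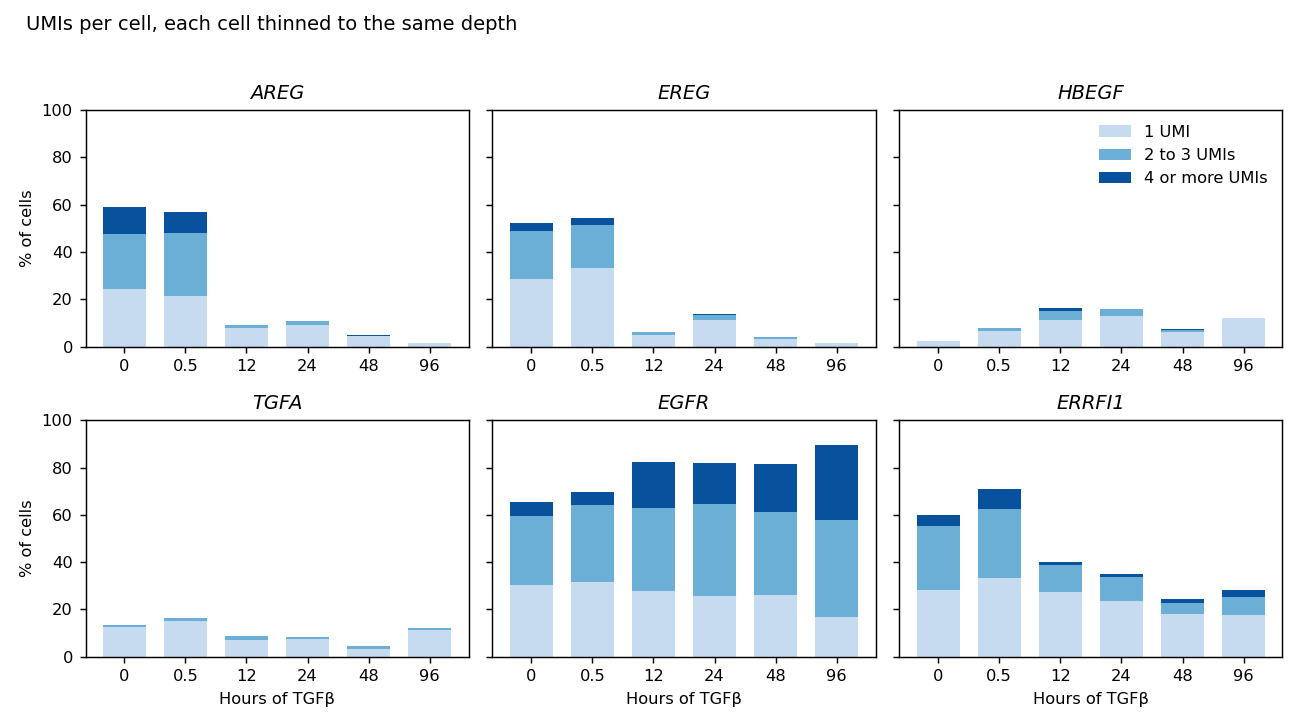
Percentage of cells with 1, 2 to 3 and 4 or more UMIs of 6 members against hours of TGFβ, after each cell was thinned to 12500 UMIs (both libraries of a time together, 114 to 370 cells). AREG and EREG bars are shorter from 12 h on, and cells with 4 or more EGFR UMIs are most frequent at 96 h (31.6%).

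AREG and EREG were also compared within cells. At 0 h, 28.6% and 42.7% of thinned cells held both, where the product of the shares of each gave 24.1% and 39.6%. The observed share was above the product in 10 of 12 libraries, the exceptions being those of 96 h with 0 cells holding both. Few cells held both at 12 h (2 and 3 cells), 24 h (4 and 6) and 48 h (2 and 2). At 6250 UMIs per cell the observed share was above the product in 6 of 12. For comparison, EREG with EGFR lay above its product in 8 of 12 libraries and AREG with EGFR in 7 of 12 at 12500 UMIs, and each in 9 of 12 at 6250 UMIs. Cells of a library share their depth and time, and no test was made.

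The genes with the most similar time courses were named for each member by Pearson's r of log2(CPM + 1) over the 12 libraries, among genes with a mean of at least 50 CPM. These are descriptions across libraries that share their time points. AREG was closest to the drug exporter ABCG2 (r = 0.980), the aldehyde dehydrogenase ALDH3A2 (0.978) and the myelin protein PMP22 (0.973). EREG was closest to GCLC (0.972), the catalytic subunit of glutathione synthesis, and to the redox enzymes NQO1 (0.965) and TXNRD1 (0.963). GCLC had means of 162 CPM (0 h), 38.6 (12 h), 51.6 (24 h) and 39.4 (48 h), and so was also higher at 24 h than on either side. It was picked for its likeness to EREG over these same libraries, so this adds no support to the EREG level at 24 h. HBEGF was closest to the ephrin EFNA1 (0.915), the zinc exporter SLC30A1 (0.891) and the CTP synthase CTPS1 (0.882). EGFR was closest to UBA6, a ubiquitin-activating enzyme (0.974), to IGFBP7 (0.972), a secreted binding protein, and to the endosome tether EEA1 (0.962). ERRFI1 was closest to TXN2 (0.960), HILPDA (0.951) and again ABCG2 (0.949). The closest gene to TGFA was ENOPH1 (0.903), and for ERBB2 no gene exceeded 0.761. Among the members, r was 0.961 for AREG with EREG, 0.925 for AREG with ERRFI1 and -0.934 for AREG with EGFR.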

How the data were processed

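Single-cell RNA-seq of TGFβ-treated A549 cells was measured in 12 libraries (2 per time point). The authors deposited UMI counts per gene and well, whole numbers that are not normalized. The submitters' processing notes list UMI-tools, featureCounts 2.0.1, HISAT2 2.2.1, Trim Galore 0.6.7 and the build GRCh38, some of them in versions other than those of the paper's methods. Neither the release of the annotation nor strandedness in counting is given in the sources used here. As in the study's methods, a well was kept if its UMIs numbered 100 to 40000, its detected genes 2000 to 7000, and its mitochondrial share was no more than 35%. Those methods state a somewhat larger number of cells than the 1871 that these limits left, and the reason was not found. No doublet caller was run.

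For each library, counts of protein-coding genes were added up over kept cells (88.7% to 91.0% of UMIs) and tested with edgeR 4.0.16 in R 4.3.3 (TMM, filterByExpr, robust quasi-likelihood F test, a mean per time point over 12 libraries, 6 residual degrees of freedom, biological coefficient of variation 0.129). There were 9 comparisons, each time against 0 h and against the time before. At the smallest library sum, 1 UMI is about 1 CPM, which limits ERBB2 and ERBB3. The method was tested on simulated data. Alternatives were median-ratio scaling, DESeq2 1.42.0, no low-count filter, all gene types, stricter cell limits (at least 3000 genes, at most 20% mitochondrial), thinned sums, the replicate number as a block, each library left out, and, added after seeing the data, each member without its top cell per library. For groups with 1 to 3 counts, the ratio of summed counts is given with an exact interval, and for 0 counts a bound against a floor of 3.

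For the per-cell shares, each cell was thinned to 12500 UMIs (near the 10th percentile of depth), shallower cells being left out (Python 3.11.15, numpy 2.4.6, scipy 1.17.1, matplotlib 3.10.9). Promoter sequences are from RefSeq (GRCh38.p14) and gene positions from GENCODE 44. The members, the gene lists and the rule for named genes (members in every comparison, up to 4 passing genes per list with the lowest adjusted p at 12 h or 96 h, and the 3 genes most like each member) were chosen with earlier results of these data known.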

Additional observations from a re-analysis of the deposited data

Results flagged for a closer look

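Wells that held at least 1000 detected genes but fell outside the limits for a cell (550 wells, 9 to 92 per library) entered no comparison, and 2 members were higher there in both 96 h libraries than in both 0 h libraries. CPM of these wells were scaled to their own protein-coding UMIs, without TMM, unlike the levels above. EGFR averaged 287 CPM at 96 h in these wells (270 and 305), against 137 CPM at 0 h (125 and 150). HBEGF averaged 14.7 CPM at 96 h (14.5 and 14.9), against 2.19 CPM at 0 h (4.38 and 0), the 0 h values resting on 2 and 0 UMIs. These values were not tested.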

How the results depend on the processing

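Of 27 member changes that passed, none was lost with DESeq2, median-ratio size factors, all gene types, no low-count filter or, an alternative added after seeing the data, without the top cell of each library. Thinned library sums ended 3 and leaving out 1 library ended 14 of 324 calls. Stricter cell limits, with 4 of the 7 members left to test, ended 11 calls and turned AREG at 48 h against 24 h to 0.24; the members passing there, against 0 h, were 1 (12 h), 1 (24 h), 3 (48 h) and 3 (96 h), 2 at 12 h against 0.5 h and 0 at 48 h against 24 h, beside 302, 246, 428, 630, 252 and 63 of 4871 genes in the same order. Without the low-count filter 1 member passed at 0.5 h against 0 h, 1 at 24 h against 12 h, 3 at 48 h against 24 h and 2 at 96 h against 48 h, beside 63, 31, 741 and 258 of 15452 genes in these comparisons in this order. With the top cell of each library left out, 3 passed at 48 h against 24 h, each cell being picked by the same counts that were tested.

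With the replicate number as a block, 1 member passed at 24 h against 12 h (EREG, adjusted p = 0.0182), the other counts of members were as without it, and no call that passed was lost; of all genes, 21 passed there, against 0 without the block. Deviations of same-numbered libraries correlated at -0.0952 to 0.292, over 0.1 in 6 of 15 pairs of times. These 6 (0.145 to 0.292) were every pair that leaves out both 0.5 h and 96 h, while those with 0.5 h were below 0. Pairing had required every pair to be over 0.1, so the block was kept as an alternative, although same-numbered libraries share a barcode set.

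With each library left out in turn, the members passing against 0 h ranged over 3 to 5 (12 h), 4 to 5 (24 h), 4 to 6 (48 h) and 4 to 5 (96 h), with 3 to 5 at 12 h against 0.5 h, 1 to 2 at 48 h against 24 h and 0 to 1 at 96 h against 48 h. The changes that took both signs were those at 0.5 h against 0 h of AREG (-0.49 to 0.14), EREG (-0.36 to 0.16), TGFA (-0.42 to 0.63) and EGFR (-0.20 to 0.26), and of TGFA at 12 h (-0.67 to 0.084) and 96 h (-0.39 to 0.38) against 0 h, none of which passed. AREG and EREG were found together above the product of their shares in 6 libraries at 6250 UMIs per cell, against 10 at 12500. The causes were not tested.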

Other observations

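In the same wells outside the limits, again without TMM scaling, AREG was at 1.04 and 0 CPM at 96 h (1 and 0 UMIs), against 123 and 141 CPM at 0 h. EREG was at 1.04 and 7.43 CPM at 96 h, against 87.7 and 159 CPM at 0 h, and ERRFI1 at 24.9 and 26.0 CPM, against 147 and 90.7 CPM. In 12 h replicate 2, where 12 such wells held 26602 protein-coding UMIs, EREG stood at 113 CPM, which rests on 3 UMIs, and AREG at 0.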
